A study of Arabidopsis thaliana with 6 samples.

Results

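Class III peroxidases are the secreted heme peroxidases of plants, a large family whose members act in the cell wall and the apoplast. The transcripts described here are the 76 nuclear genes, of 24193 listed genes, that the authors' annotation describes as a peroxidase superfamily protein or places in the extracellular region with peroxidase activity. The description chose 58 of them and the Gene Ontology terms chose 75, with 57 chosen by both. Of the 76, 68 carry a number in the Arabidopsis class III family (PRX), and 8 do not. Those 8 are APX1 (a cytosolic ascorbate peroxidase), DOX1 (a fatty acid alpha-dioxygenase), PAP17 (a phosphatase), a mitochondrial carrier gene (AT1G14560), a noncoding RNA (AT1G33615) and 3 loci annotated only as a peroxidase or part of one (AT5G14110, AT5G40153 and AT3G42570). The label of secreted class III peroxidases therefore holds for 68 of the 76 genes, and the results below are mainly about those 68. The numbered family has 73 loci in RefSeq, and PRX1, PRX6, PRX14, PRX41 and PRX67 were not analysed here.

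RNA came from whole Arabidopsis thaliana seedlings kept for 6 days in the dark, 3 libraries of the wild type Col-0 (wt) and 3 of the mutant lon1-1. LON1 is a protease that degrades proteins in the matrix of mitochondria, and the comparison asks how transcript levels in etiolated seedlings differ when its gene is mutated. The genotype field of the labels gives Col-0 for all 6 libraries, so genotype was taken from the titles. LON1 (AT5G26860) measured 4.69, 4.70 and 4.69 FPKM in wt A, B and C and 2.67, 2.61 and 2.79 FPKM in lon1-1 A, B and C, without overlap (log2 fold change -0.63, adjusted p = 3.583e-06).

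Class III peroxidases use hydrogen peroxide to oxidise phenolic compounds in the wall, which joins lignin monomers and cross-links wall proteins and so stiffens the wall. They can also produce reactive oxygen species, which loosen walls during growth and serve as a burst against microbes. In seedlings of Arabidopsis, individual members are known from growing root hairs, from the Casparian strip (the lignin band of the root endodermis), from xylem vessels and from elicitor responses.

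Levels are FPKM, fragments per gene scaled to transcript length and library size. A log2 fold change is lon1-1 minus wt on log2(FPKM + 1), which understates the change of low genes, and a ratio is lon1-1 over wt of mean FPKM. Rose and fell are written of genes with an adjusted p under 0.05 in limma, fitted over the 18308 genes that reached 1 FPKM in 3 or more libraries. The design text gives 3 independent biological replicates per genotype. Estimated depth was 32750000 to 33250000 fragments in wt and 34500000 to 35500000 in lon1-1, and 17861 to 18007 genes reached 1 FPKM in a library. Correlations of log2 values were at least 0.997 within a genotype and 0.934 to 0.936 between genotypes. At this agreement between replicates most genes passed the test: 77.0% of all tested genes changed, 44.7% rising and 32.3% falling.

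The peroxidase family did not move as one in lon1-1: the 6 members listed for root hairs rose, the 7 listed for the oxidative burst and growth restraint fell, 5 of the 7 listed for lignin fell, and the most abundant member lost more than any other in FPKM. Of the 63 members tested, 22 rose (34.9%) and 37 fell (58.7%), beside 44.7% and 32.3% of all tested genes, and 4 did not pass the test. All 22 that rose are numbered class III genes, of 58 tested, and 34 of the 58 fell. The median log2 fold change was -0.32 over the 63 tested members and -0.27 over the numbered ones, beside 0.08 over all tested genes. Changes of at least 2-fold on the log2(FPKM + 1) scale were counted for 7 members upward and 11 downward, where 4.07% and 4.76% of all tested genes reached them. In a test against a fold of 1.5 (limma treat), 12 members rose and 18 fell, where 8.33% and 7.69% of all tested genes did so. Among the tested members, 22 had all lon1-1 libraries above all wt libraries and 37 had them all below, where the shares over all tested genes were 45.7% and 33.4%, or 79.1% in either direction.

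**Figure D1:**
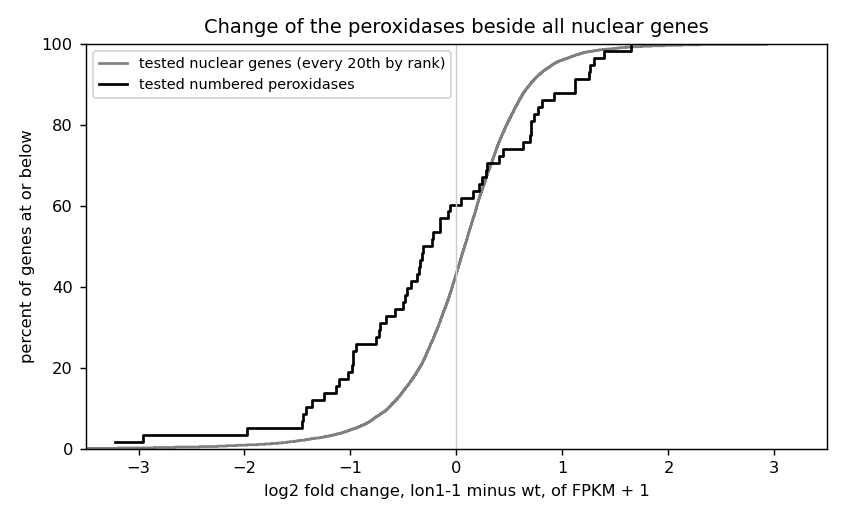
Cumulative percent of genes (vertical axis) at or below each log2 fold change of FPKM + 1, lon1-1 minus wt (horizontal axis), for the 58 tested numbered peroxidases (black) and every 20th tested nuclear gene by rank (grey). The peroxidase curve, with a median of -0.27 against 0.08, lies above the grey one over most of the negative range it spans and under it over most of the range from small rises to its highest gene at 1.65. Single nuclear genes reach further than any peroxidase in both directions.

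The filter decided which members could be tested. Among those tested, 8 reached 1 FPKM in all libraries of 1 genotype and in none of the other, so that they passed only through the genotype in which they were high: PRX5, PRX29, PRX33, PRX38, PRX53 and PRX65 through wt, and PRX40 and PRX46 through lon1-1. Among the 47 members with a mean of at least 5 FPKM over all libraries, 16 rose and 28 fell. The 13 members left untested did not exceed 1.2 FPKM in any library.

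**Figure D2:**
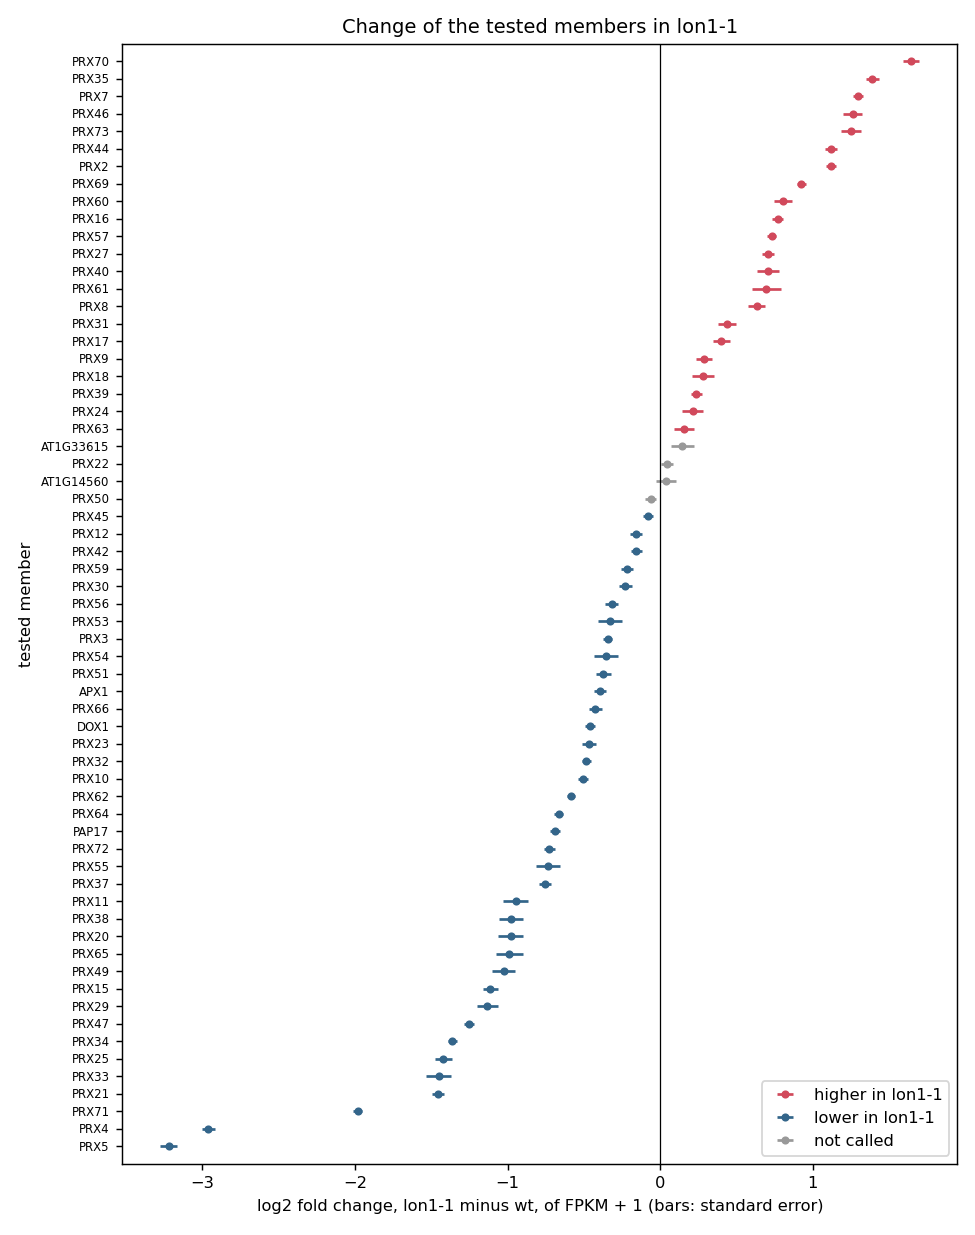
Log2 fold change of FPKM + 1, lon1-1 minus wt (horizontal axis), with its standard error as a bar, for each of the 63 tested members (vertical axis). Red marks the 22 members that rose, blue the 37 that fell and grey the 4 not called, from PRX70 at 1.65 to PRX5 at -3.22.

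The 6 members listed for root hairs that have a row rose, with a median log2 fold change of 1.19. PRX44 and PRX73 are needed for normal root hair growth together with PRX1, PRX60 and PRX73 are also known as the root hair specific genes RHS18 and RHS19, and PRX7, PRX8 and PRX35 are known from expression in root hair cells. PRX44 (AT4G26010) measured 45.46, 44.76 and 42.62 FPKM in wt and 96.58, 94.06 and 101.79 FPKM in lon1-1. The 3 lon1-1 libraries all lay above the wt libraries, at 2.20 times the wt mean (log2 fold change 1.12 ± 0.0392 SE, adjusted p = 5.386e-09).

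PRX73 (AT5G67400) measured 18.42, 15.66 and 15.86 FPKM in wt and 43.34, 41.62 and 37.80 FPKM in lon1-1. Its groups did not overlap, and the lon1-1 mean was 2.46 times that of wt (log2 fold change 1.25 ± 0.0672 SE, adjusted p = 1.043e-07). The largest rise in the list was that of PRX35 (AT3G49960), from 12.17, 11.32 and 11.32 FPKM in wt to 32.97, 32.10 and 30.99 FPKM in lon1-1. All lon1-1 libraries of PRX35 were above those of wt, at a ratio of 2.76 (log2 fold change 1.39 ± 0.0429 SE, adjusted p = 2.400e-09).

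PRX7 (AT1G30870) varied little within a genotype, with 16.83, 16.58 and 16.76 FPKM in wt and 43.30, 42.17 and 42.40 FPKM in lon1-1. The groups lay apart at a ratio of 2.55 (log2 fold change 1.30 ± 0.0325 SE, adjusted p = 5.920e-10). Smaller rises without overlap were those of PRX60 (AT5G22410), from 8.26 ± 0.601 to 15.2 ± 0.952 FPKM (SD, n = 3), and of PRX8 (AT1G34510), from 15.8 ± 0.905 to 25.02 ± 1.79 FPKM (SD, n = 3). Their log2 fold changes were 0.81 and 0.63, with adjusted p = 1.327e-06 and 4.440e-06, and PRX8 did not pass the test against a fold of 1.5. PRX69 (AT5G64100), known together with PRX62 from root hair growth in the cold, is not on the root hair list, nor is PRX62, which fell. PRX69 measured 313.47, 309.91 and 314.27 FPKM in wt and 602.45, 587.14 and 591.95 FPKM in lon1-1. It was the most abundant of the members that rose and the groups were far apart (log2 fold change 0.92 ± 0.0299 SE, adjusted p = 3.234e-09).

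Markers of root hair cells that are not peroxidases moved in the same direction. All 9 markers listed (RHD6, RSL2, RSL4, EXPA7, EXPA18, LRX1, PRP1, PRP3 and COBL9) rose, where 44.7% of all tested genes did, and none was at 0 in every library. Their summed level was 63.7 to 66.9 FPKM in wt and 126 to 135 FPKM in lon1-1. The 6 root hair peroxidases summed to 111 to 117 FPKM in wt and to 248 to 256 FPKM in lon1-1. The ratio of the means was 2.03 for the markers and 2.24 for the peroxidases. RHD6 (AT1G66470) and RSL2 (AT4G33880), regulators of root hair formation, rose by log2 fold changes of 1.52 and 1.51, and LRX1, a protein of the root hair wall, by 1.13. In RNA from whole seedlings, fewer cells of a type and less RNA per cell cannot be told apart, nor can more cells and more RNA. The part of root hair cell number in the rise of these peroxidases was not tested.

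**Figure D3:**
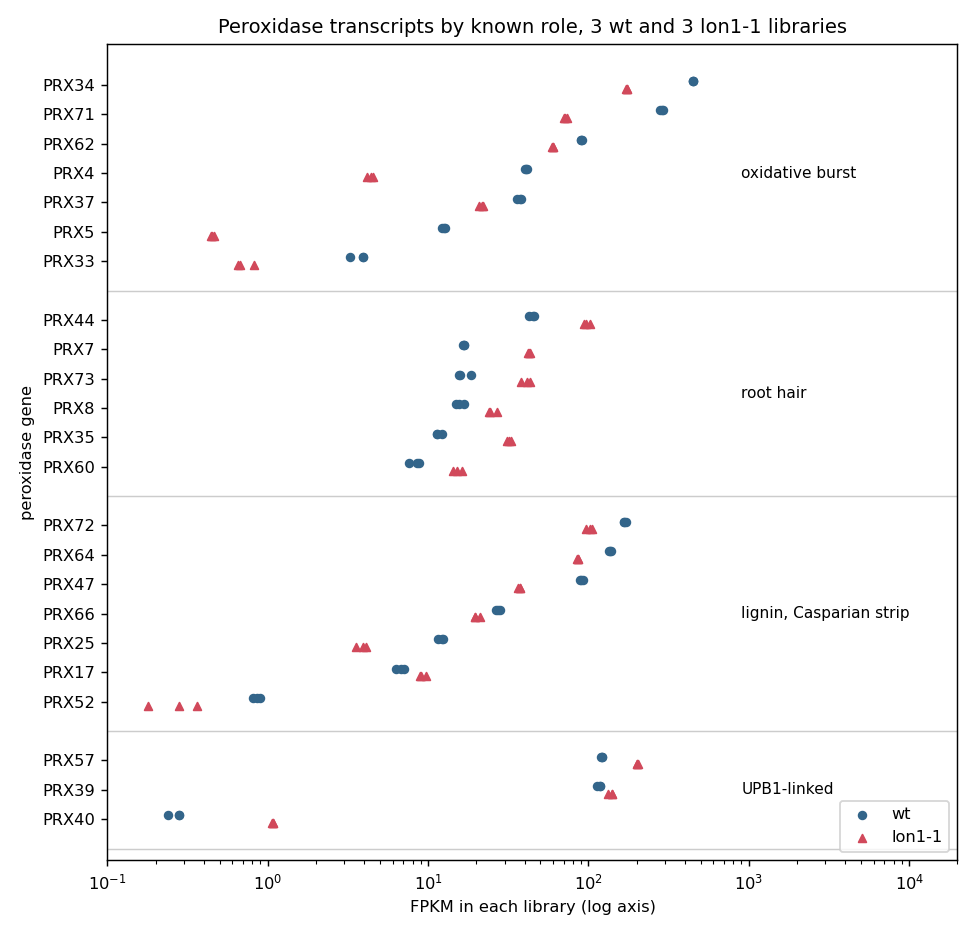
FPKM in each library on a log axis (horizontal) for the peroxidases of the 4 role lists (vertical), with wt as blue circles and lon1-1 as red triangles, 3 libraries each. In every gene shown the groups lie apart. In lon1-1 all 7 members of the oxidative burst and growth restraint list lie below wt. All 6 root hair members and all 3 UPB1-linked members lie above it. On the lignin and Casparian strip list, all but PRX17 lie below wt. PRX39, shown with the UPB1-linked members, also takes part in the Casparian strip.

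The promoters of the root hair members were read for the root hair element, a motif known from the promoters of root hair genes that bHLH factors of root hair growth bind. It was searched on both strands in the 250 bases before each annotated gene start, after the values had been seen. It shares the letters CACG with the G-box, and no numbered peroxidase had both motifs in this window. It was present before 3 of the 68 numbered peroxidases (4.41%), beside 0.789% of 23950 protein-coding nuclear genes in windows of the same length. The 3 are PRX60, PRX27 and PRX20, and of the 6 root hair members only PRX60 has it in this window. They are printed because 2 of the 3 genes rose and 1 fell. PRX27 (AT3G01190) rose from 44.4 ± 1.70 to 73.1 ± 1.92 FPKM (SD, n = 3), while PRX20 (AT2G35380) fell from 2.78 ± 0.304 to 0.917 ± 0.123 FPKM (SD, n = 3). The element is in capitals in the RefSeq sequence (TAIR10.1), read 5′ to 3′ on the strand of the gene. PRX60 lies on the plus strand at chr5:7426060-7426309, PRX27 on the minus strand at chr3:68666-68915 and PRX20 on the plus strand at chr2:14892245-14892494.
PRX60: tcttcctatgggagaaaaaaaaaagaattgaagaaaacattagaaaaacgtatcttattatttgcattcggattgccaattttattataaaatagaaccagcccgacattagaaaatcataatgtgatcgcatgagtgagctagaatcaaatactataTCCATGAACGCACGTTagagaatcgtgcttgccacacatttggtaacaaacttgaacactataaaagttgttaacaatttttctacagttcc
PRX27: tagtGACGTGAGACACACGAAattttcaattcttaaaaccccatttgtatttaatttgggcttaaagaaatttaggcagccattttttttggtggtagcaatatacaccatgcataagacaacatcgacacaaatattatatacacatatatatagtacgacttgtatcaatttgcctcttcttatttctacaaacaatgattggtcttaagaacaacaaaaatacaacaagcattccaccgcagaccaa
PRX20: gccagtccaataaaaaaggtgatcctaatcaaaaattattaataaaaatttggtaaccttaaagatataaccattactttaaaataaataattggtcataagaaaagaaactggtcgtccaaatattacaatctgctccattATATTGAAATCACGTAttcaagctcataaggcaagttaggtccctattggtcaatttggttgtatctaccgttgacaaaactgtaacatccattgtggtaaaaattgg
A match is a description of letters in the window and not a site or a cause.

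The 7 peroxidases listed for the apoplastic oxidative burst, elicitor responses and growth restraint fell. PRX5 and PRX33 passed the filter only through wt, so that they could be called only lower. The summed level of the 7 was 914 to 922 FPKM in wt and 332 FPKM in each lon1-1 library. PRX33 and PRX34 produce much of the apoplastic oxidative burst that microbial elicitors set off, and PRX4 and PRX5 are elicitor-induced. PRX71 and PRX37 are known to restrain growth, and PRX62 acts in seed germination. The 2 largest falls of any member were those of the neighbours PRX5 and PRX4.

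PRX5 (AT1G14550) measured 12.56, 12.79 and 12.19 FPKM in wt and 0.45, 0.44 and 0.46 FPKM in lon1-1. Every lon1-1 library was below 1 FPKM, and the mean was 27.8-fold lower than in wt (log2 fold change -3.22 ± 0.0557 SE, adjusted p = 5.144e-11). PRX4 (AT1G14540) measured 40.96, 40.23 and 41.42 FPKM in wt and 4.39, 4.56 and 4.18 FPKM in lon1-1. It was 9.34-fold lower with no overlap (log2 fold change -2.96 ± 0.0424 SE, adjusted p = 2.046e-11).

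PRX71 (AT5G64120) measured 285.66, 280.74 and 289.84 FPKM in wt and 70.01, 73.01 and 71.60 FPKM in lon1-1. The lon1-1 libraries were all below those of wt, 3.99-fold lower in mean (log2 fold change -1.98 ± 0.0302 SE, adjusted p = 2.574e-11). PRX62 (AT5G39580) fell from 90.3 ± 1.10 to 59.9 ± 0.422 FPKM and PRX37 (AT4G08770) from 36.9 ± 1.26 to 21.5 ± 0.651 FPKM (SD, n = 3). Their log2 fold changes were -0.58 and -0.76, with adjusted p = 5.057e-08 and 8.251e-08, and PRX62 did not pass the test against a fold of 1.5.

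PRX34 (AT3G49120) was the most abundant member of the list, with 448.98, 447.53 and 447.14 FPKM in wt and 174.62, 171.84 and 174.38 FPKM in lon1-1. Its groups were 2.58-fold apart, far beyond a spread of 0.970 and 1.54 FPKM (SD) within wt and lon1-1 (log2 fold change -1.36 ± 0.0280 SE, adjusted p = 1.556e-10). PRX33 (AT3G49110) was much lower, with 3.90, 3.24 and 3.94 FPKM in wt and 0.67, 0.82 and 0.65 FPKM in lon1-1. It lay below wt in every lon1-1 library (log2 fold change -1.45 ± 0.0819 SE, adjusted p = 1.440e-07).

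PRX33 and PRX34 stand close together on chromosome 3 with 1 gene between them, and their coding sequences are 90.4% identical, so that fragments of one may have been counted to the other. The stretches below, from the RefSeq sequence (TAIR10.1) of both genes, are shown because they hold the kind of difference on which counting the 2 genes apart rests. Both are on the plus strand, PRX33 at chr3:18200866-18200925 (coding bases 154 to 213) and PRX34 at chr3:18207969-18208028 (coding bases 151 to 210), and capitals mark the 6 of 60 bases that differ.
PRX33: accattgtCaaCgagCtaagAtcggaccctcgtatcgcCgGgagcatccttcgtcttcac
PRX34: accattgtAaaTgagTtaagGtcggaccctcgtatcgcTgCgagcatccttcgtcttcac
Since PRX34 was far more abundant than PRX33 in FPKM, a level per length, a small share of its fragments counted to PRX33 would weigh on the value of PRX33, and how many were so counted was not tested.

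Of the 7 peroxidases listed for lignin, 5 fell, PRX17 rose and PRX52 was not tested. PRX2, which also takes part in stem lignin and is not on the list, rose. PRX39 and PRX9, linked to the Casparian strip and also off this list, rose too, and PRX3, described with PRX9 below, fell. The summed level of the 7 was 436 to 443 FPKM in wt and 251 to 263 FPKM in lon1-1. PRX64 builds the lignin of the Casparian strip, PRX72, PRX52 and PRX25 that of the stem, and PRX66 and PRX47 that of xylem vessels. PRX47 (AT4G33420) measured 89.48, 92.04 and 88.45 FPKM in wt and 37.47, 36.53 and 37.64 FPKM in lon1-1. The groups were 2.42-fold apart with no overlap (log2 fold change -1.25 ± 0.0311 SE, adjusted p = 5.680e-10).

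PRX25 (AT2G41480) measured 12.32, 11.57 and 12.16 FPKM in wt and 3.95, 4.08 and 3.56 FPKM in lon1-1, the largest fall in the list. It was 3.11-fold lower in lon1-1 (log2 fold change -1.42 ± 0.0572 SE, adjusted p = 1.380e-08). PRX72 (AT5G66390) measured 171.01, 165.78 and 166.23 FPKM in wt and 96.14, 101.52 and 105.63 FPKM in lon1-1. Its lon1-1 libraries varied more than those of wt but stayed below them (log2 fold change -0.73 ± 0.0380 SE, adjusted p = 8.670e-08).

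PRX64 (AT5G42180) fell from 136 ± 2.21 to 85.4 ± 1.05 FPKM (SD, n = 3), a log2 fold change of -0.67 (adjusted p = 2.323e-08). PRX66 (AT5G51890) fell from 27.3 ± 0.702 to 20.1 ± 0.889 FPKM (SD, n = 3), a log2 fold change of -0.42 (adjusted p = 7.630e-06). Neither passed the test against a fold of 1.5. PRX17 (AT2G22420), which takes part in lignified tissue formation, rose from 6.73 ± 0.406 to 9.20 ± 0.388 FPKM (SD, n = 3), a log2 fold change of 0.40 (adjusted p = 9.988e-05). PRX52 (AT5G05340) measured 0.86, 0.89 and 0.81 FPKM in wt and 0.36, 0.18 and 0.28 FPKM in lon1-1, below the level needed for the test.

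Most enzymes that make lignin monomers rose. Of 15 tested genes from PAL1 to CAD5, 10 rose and 3 fell, where 44.7% and 32.3% of all tested genes did so. The median log2 fold change of the 15 was 0.14, not far from the 0.08 over all tested genes. They summed to 1574 to 1612 FPKM in wt and 1770 to 1801 FPKM in lon1-1. CAD4 and COMT1, of the last steps, rose by 0.66 and 0.60 on the log2 scale, and PAL4, of the first step, fell by 0.88. The 3 laccases that polymerise lignin beside the peroxidases all fell, LAC4 by 0.39, LAC17 by 0.39 and LAC11 by 0.36 on the log2 scale.

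Most endodermis markers fell, and 3 of 6 xylem vessel markers did. Of 8 endodermis markers (CASP1 to CASP5, MYB36, ESB1 and SGN3), 7 fell and MYB36 did not pass the test, and their sum was 706 to 739 FPKM in wt and 387 to 408 FPKM in lon1-1. CASP5, CASP2 and CASP1, scaffold proteins of the Casparian strip, had log2 fold changes of -1.61, -0.89 and -0.82. Those of the xylem that fell were XCP1 and XCP2, proteases of dying vessel cells, by 0.68 and 0.58, and IRX3, a cellulose synthase of the secondary wall, by 0.19 on the log2 scale. The xylem list summed to 104 to 109 FPKM in wt and 73.3 to 79.4 FPKM in lon1-1, with IRX1, IRX5 and VND7 not called. No marker of either list was at 0 in every library, and the part of these cell types in the fall of the listed lignin peroxidases was not tested.

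**Figure D4:**
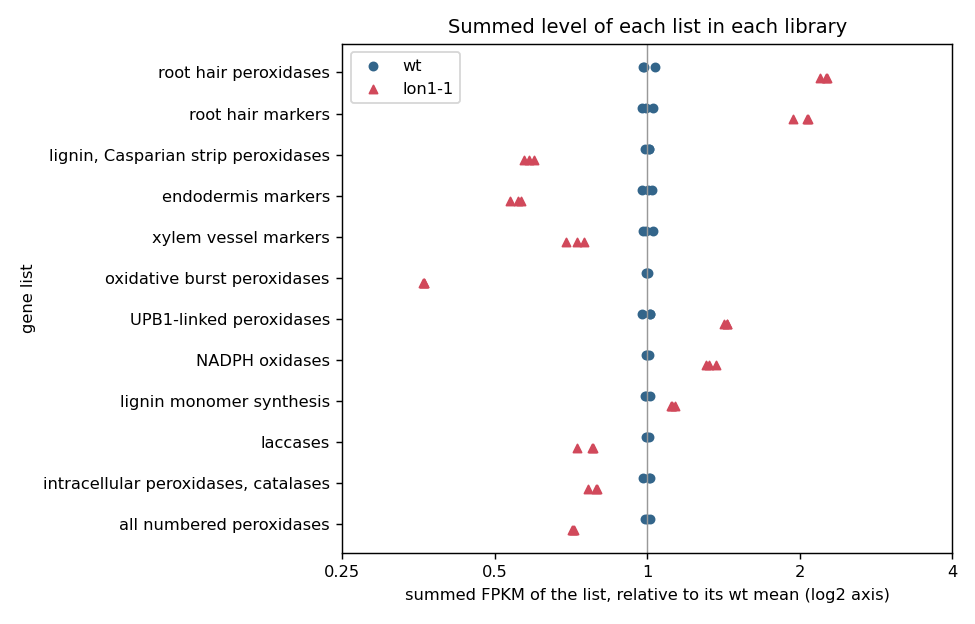
Summed FPKM of each gene list (vertical axis) in each library, divided by its wt mean, on a log2 axis (horizontal), with wt as blue circles and lon1-1 as red triangles. The root hair peroxidases and root hair markers lie to the right of wt (2.24 and 2.03 times its mean). The listed lignin peroxidases and the endodermis markers lie to its left (0.584 and 0.552 times). The peroxidases listed for the oxidative burst and growth restraint lie furthest to the left (0.362 times).

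The peroxidases linked to UPB1 rose, and UPB1 itself fell. The part of UPB1 in the rise of these peroxidases was not tested. UPB1 (AT2G47270) is a bHLH factor of the root that represses PRX39, PRX40 and PRX57 and so sets where root cells stop dividing and begin to elongate. It measured 40.10, 37.57 and 35.90 FPKM in wt and 23.61, 23.11 and 21.11 FPKM in lon1-1, without overlap (log2 fold change -0.72, adjusted p = 9.102e-07). PRX57 (AT5G17820) measured 121.60, 119.08 and 122.26 FPKM in wt and 200.72, 200.04 and 203.62 FPKM in lon1-1. All lon1-1 libraries were above wt, at a ratio of 1.67 (log2 fold change 0.73 ± 0.0282 SE, adjusted p = 1.030e-08).

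PRX39 (AT4G11290), which also takes part in the Casparian strip, measured 118.53, 112.30 and 118.55 FPKM in wt and 139.20, 140.50 and 132.34 FPKM in lon1-1. The groups did not overlap but lay close (log2 fold change 0.24 ± 0.0360 SE, adjusted p = 1.825e-04), and PRX39 did not pass the test against a fold of 1.5. PRX40 (AT4G16270), known from the tapetum of the anther, measured 0.28, 0.24 and 0.28 FPKM in wt and 1.07, 1.06 and 1.07 FPKM in lon1-1. It passed the filter only through lon1-1 and failed the test against a fold of 1.5 (adjusted p = 0.294). Markers of the root tip were few at these levels: PLT1, PLT2 and WOX5 stayed below 1 FPKM, SHR fell by 0.46 on the log2 scale and SCR was not called. The root tip list summed to 24.02 to 26.08 FPKM in wt and 20.93 to 21.99 FPKM in lon1-1, and its part in the values of these peroxidases was not tested.

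PRX21 (AT2G37130) made up much of the loss in the family's summed level. It measured 2830.94, 2692.49 and 2775.01 FPKM in wt and 1010.61, 995.46 and 1019.68 FPKM in lon1-1. With no overlap it was 2.74-fold lower (log2 fold change -1.45 ± 0.0398 SE, adjusted p = 1.098e-09). Its share of the summed FPKM of the numbered peroxidases was 34.5% to 35.3% in wt and 17.6% to 18.2% in lon1-1.

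The numbered peroxidases summed to 8020, 7813 and 7906 FPKM in wt and 5661, 5644 and 5618 FPKM in lon1-1, or 1.35% to 1.38% and 0.954% to 0.971% of the summed FPKM of nuclear genes. The ratio of the sums was 0.713. Without PRX21 it was 0.900, from 5147 ± 36.5 to 4633 ± 29.7 FPKM (SD, n = 3).

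The next most abundant members had smaller changes on the log2 scale. PRX42 (AT4G21960) went from 907 ± 20.1 to 814 ± 20.6 FPKM, PRX32 (AT3G32980) from 654 ± 4.70 to 468 ± 4.42 FPKM and PRX45 (AT4G30170) from 485 ± 8.89 to 458 ± 5.20 FPKM (SD, n = 3). Their log2 fold changes were -0.16, -0.48 and -0.08, with adjusted p = 0.003296, 3.222e-07 and 0.03699. The fall of PRX45 did not pass when any 1 of the 6 libraries was left out (adjusted p = 0.05349 to 0.1218). APX1 (AT1G07890), the cytosolic ascorbate peroxidase that the selection takes in, fell from 529 ± 9.69 to 402 ± 18.7 FPKM (SD, n = 3; log2 fold change -0.40, adjusted p = 8.683e-06). Of 14 numbered members with a wt mean of at least 100 FPKM, 3 rose and 11 fell, where 42.63% of the 936 nuclear genes at that level rose and 46.58% fell. The 3 that rose are PRX69, PRX57 and PRX39.

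Of the members named for the size of their change alone, PRX70 (AT5G64110) rose most, from 5.37, 4.96 and 5.25 FPKM in wt to 18.11, 19.52 and 17.54 FPKM in lon1-1. Its lon1-1 libraries were all above wt, at a ratio of 3.54 (log2 fold change 1.65 ± 0.0531 SE, adjusted p = 3.122e-09). PRX16 (AT2G18980) rose from 50.7 ± 2.18 to 87.1 ± 1.20 FPKM (SD, n = 3), a log2 fold change of 0.77 (adjusted p = 4.467e-08). PRX15 (AT2G18150) fell from 8.80 ± 0.185 to 3.53 ± 0.133 FPKM and PRX49 (AT4G36430) from 14.1 ± 0.478 to 6.46 ± 0.804 FPKM (SD, n = 3), by log2 fold changes of -1.11 and -1.02 (adjusted p = 3.809e-08 and 9.458e-07). PRX2 (AT1G05250), one of the stem lignin peroxidases, measured 70.79, 75.69 and 73.24 FPKM in wt and 158.07, 158.26 and 164.79 FPKM in lon1-1. The groups lay apart at a ratio of 2.19 (log2 fold change 1.12 ± 0.0346 SE, adjusted p = 2.400e-09).

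The coding sequence of PRX2 does not differ at any of its 978 bases from that of its neighbour PRX1, a root hair peroxidase not analysed here. Fragments of the coding sequence of PRX1 and PRX2 cannot be told apart, and the value of PRX2 may hold both. Among the 68 numbered members, 10 have a relative with at least 90% coding identity, so that their levels depend on how the authors' counting divided shared fragments.

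A further 24 numbered members changed without being named by the rule, 8 upward and 16 downward, where 8182 of all tested genes rose and 5922 fell. PRX46 (AT4G31760), named after its values were seen, measured 0.53 FPKM in each wt library and 2.68, 2.61 and 2.71 FPKM in lon1-1 (log2 fold change 1.26, adjusted p = 6.900e-08). It passed the filter only through lon1-1, so that it could be called only higher. Among peroxidases of the Casparian strip and of stress that are on no role list, PRX3 (AT1G05260, also RCI3), an enzyme of cold and potassium responses, fell from 127 ± 2.59 to 100.1 ± 2.64 FPKM, and PRX9 (AT1G44970) rose from 25.5 ± 1.55 to 31.3 ± 1.73 FPKM (SD, n = 3; adjusted p = 5.228e-06 and 7.470e-04). The numbered members that were tested and not called are PRX22 and PRX50, at 51.2 ± 2.33 and 52.8 ± 1.21 FPKM and at 95.6 ± 3.68 and 91.5 ± 1.27 FPKM in wt and lon1-1 (SD, n = 3).

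Peroxidase genes that stand side by side did not always move together. Numbered loci with at most 2 protein-coding genes between them form 14 pairs, of which 9 have both genes tested and 7 have both called. Of those 7, 5 moved the same way (PRX4 with PRX5, PRX33 with PRX34, PRX37 with PRX38, PRX53 with PRX54 and PRX69 with PRX70). In 4 of these 5 a gene passed the filter only through wt and could be called only lower (PRX5, PRX33, PRX38 and PRX53), which leaves PRX69 with PRX70. PRX33 with PRX34 and PRX37 with PRX38, at 90.4% and 93.8% coding identity, may also share fragments. In the other 2 of the 7 pairs, PRX2 rose beside PRX3, which fell, and PRX70 rose beside PRX71, which fell. Coding identity was 54.0% and 60.4% in these 2 pairs. At the row of PRX69, PRX70 and PRX71 on chromosome 5, the first 2 genes rose by 0.92 and 1.65 on the log2 scale while PRX71 fell by 1.98.

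**Figure D5:**
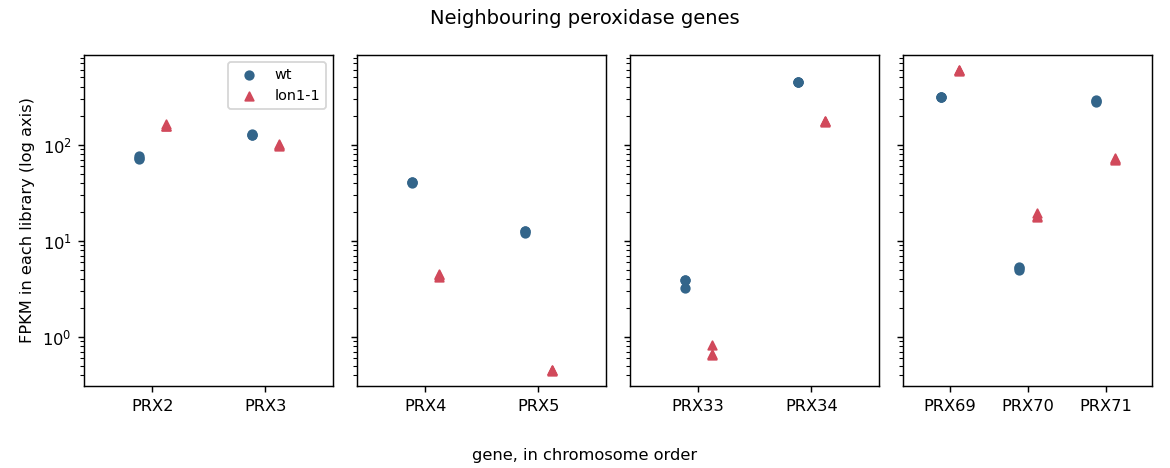
FPKM in each library on a log axis (vertical) for 4 groups of neighbouring peroxidase genes in chromosome order (horizontal), with wt as blue circles and lon1-1 as red triangles, 3 libraries each. PRX4 with PRX5 and PRX33 with PRX34 lie lower in lon1-1, while PRX2 and PRX3, and PRX70 and PRX71, lie on opposite sides of wt.

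Other promoter motifs were present before the peroxidases about as often as elsewhere, or in few genes or none. The windows and strands were those of the root hair element, and no overlap of these motifs with each other was removed. The W-box core (TTGAC), bound by WRKY factors of defence, was present before 45.6% of the 68 numbered peroxidases and 45.4% of all promoters. It was present before 4 of the 7 members listed for the oxidative burst and growth restraint. The G-box (CACGTG), bound by bZIP and bHLH factors, was present before 4.41% and 7.06%. The mitochondrial dysfunction motif in its A form, bound by NAC factors that answer mitochondrial stress, was present before PRX11 and PRX61, 2.94% of the numbered peroxidases, and 0.697% of all promoters. Its C form was present before none of the numbered peroxidases and 0.447% of all promoters. PRX61 rose from 0.847 ± 0.142 to 1.997 ± 0.302 FPKM and PRX11 fell from 2.82 ± 0.186 to 0.983 ± 0.190 FPKM (SD, n = 3).

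NADPH oxidases, which supply the apoplast with superoxide from which the hydrogen peroxide used by peroxidases forms, mostly rose. Of 8 tested (RBOHA to RBOHG and RBOHI), 7 rose and RBOHA was not called, where 44.7% of all tested genes rose. The median log2 fold change of the 8 was 0.33, beside 0.08 over all tested genes, and none passed the test against a fold of 1.5. RBOHC (AT5G51060), also known as RHD2 and needed for root hair growth, measured 11.20, 10.94 and 10.92 FPKM in wt and 16.56, 16.80 and 17.09 FPKM in lon1-1. All its lon1-1 libraries were above wt (log2 fold change 0.57 ± 0.0387 SE, adjusted p = 5.587e-07). RBOHG and RBOHE rose by 0.65 and 0.56 on the log2 scale.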

How the data were processed

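RNA-seq libraries of 3 wt and 3 lon1-1 samples were stranded and had ribosomal RNA removed, per the labels. The deposited values are FPKM per gene, computed by the authors and written to 2 decimals, and the submitters' processing notes name HISAT2, Bowtie2, RSEM and the TAIR10 build without versions or order. Genotype came from the sample titles.

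FPKM is not a count, so the test was limma 3.58.1 in R 4.3.3 on log2(FPKM + 1), with empirical Bayes and a mean-variance trend, genotype as the only term, over genes that reached 1 FPKM in 3 or more libraries. Adjusted p-values are from limma with Benjamini-Hochberg adjustment over all tested genes, with a threshold of 0.05. On simulated data with 200 of 18308 genes changed 2-fold, 200 were recovered with 6 false calls. The simulated noise was normal and independent, as limma assumes, so the result does not bear on calls of smaller changes or on other kinds of noise. Low FPKM values of short transcripts fall on steps of 1 fragment, and those steps gave the depth, with 180 bases taken off transcript length. With that depth, 1 FPKM in 1 kilobase stands for 26.9 to 29.1 fragments. Depth and that offset were fitted together to the same values, so the estimate has no independent check.

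The members, role lists, marker lists and tests were chosen with earlier results of these data known. The rule named the 10 largest rises and the 10 largest falls (called, a group mean of at least 5 FPKM, groups apart), the 6 members of highest mean, the role lists, and up to 3 changed genes of each other list. Genes named beyond it were chosen after their values were seen. Sequences, names and neighbours are from RefSeq (TAIR10.1). All 44279 transcript accessions in the table were found there with their versions, and coding identity is over aligned bases. Alternatives were another pseudocount, filters, 3 scalings, no trend, the replicate letter as a block, a test against a fold of 1.5, each library left out, and other forms of the selection.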

Additional observations from a re-analysis of the deposited data

How the results depend on the processing

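No call of a member turned to the opposite direction in any alternative. The median log2 fold change of the tested members (-0.32) was -0.34 with a pseudocount of 0.1, -0.22 with no filter, -0.23 with a mean of at least 5 FPKM, -0.36 with median-ratio scaling, -0.34 with upper-quartile scaling, -0.34 with nuclear TPM scaling, and -0.27 for the description alone or the numbered loci alone. Leaving out each library gave -0.33 to -0.27. Against a fold of 1.5, calls fell to 12 members higher and 18 lower, and to 1525 and 1408 over all genes, because the test asks for more than a nonzero change. The summed ratio (0.716) was 0.680 with median-ratio scaling, 0.699 with upper-quartile scaling and 0.882 without PRX21. PRX24 and PRX63 were not called with median-ratio scaling, and PRX50 was then called lower. PRX45 was not called without the mean-variance trend (adjusted p = 0.07974).

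The replicate letters do not pair the libraries: the correlations of deviations between same-lettered libraries were 0.06, 0.017 and -0.032. With the letter as a replicate block 21 members rose and 36 fell, PRX45 (adjusted p = 0.06623) and PRX63 losing their calls.

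The FPKM hold no counts, so values below 1 FPKM carry no interval. By the depth estimate 1 FPKM in 1 kilobase stands for 26.9 to 29.1 fragments, and lower values for fewer. PRX13, PRX36 and PRX43 stayed below 1 FPKM with overlapping groups, where a difference was not detectable at this depth.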

Other observations

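Peroxidases and catalases inside the cell, which share hydrogen peroxide as a substrate with the secreted family, were split in direction. Of 15 tested genes of 18 listed, APX1 among them, 6 rose and 8 fell, where 44.7% of all tested genes rose and 32.3% fell. The list summed to 5726 to 5899 FPKM in wt and 4460 to 4647 FPKM in lon1-1. Its most abundant gene, CAT3 (AT1G20620), fell from 4641 ± 91.9 to 3437 ± 110.6 FPKM (SD, n = 3; log2 fold change -0.43). Among the 6 that rose, SAPX went from 20.81 to 36.89 FPKM and APX3 from 48.43 to 78.38 FPKM in mean. The mean of CAT2 went from 155.7 to 215.8 FPKM. Their log2 fold changes were 0.80, 0.68 and 0.47. The thylakoid ascorbate peroxidase TAPX (AT1G77490) measured 8.29, 8.20 and 8.44 FPKM in wt and 2.70, 3.03 and 2.70 FPKM in lon1-1, without overlap (log2 fold change -1.29, adjusted p = 2.665e-08). The plastid glutathione peroxidase GPX1 (AT2G25080) fell from 72.5 ± 0.780 to 34.4 ± 1.09 FPKM and the catalase CAT1 (AT1G20630) from 18.2 ± 0.587 to 9.70 ± 0.335 FPKM (SD, n = 3), with adjusted p = 2.770e-09 and 9.083e-08.

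Among the 13 members left untested, 7 had groups that did not overlap, beside 79.1% of all tested genes. The share over untested genes was not counted. None of the 13 exceeded 1.2 FPKM in any library, and values near 0 stand for few fragments. PRX19, PRX28, PRX48, PRX52 and PRX58 were lower in lon1-1, and PRX26 and PRX68 higher. PRX28 (AT3G03670) measured 0.93, 1.20 and 0.99 FPKM in wt and 0.00, 0.05 and 0.10 FPKM in lon1-1. PRX68 (AT5G58400) was listed at 0.00 FPKM in each wt library and at 0.14, 0.05 and 0.16 FPKM in lon1-1. Of the shoot markers, STM fell by 0.79 on the log2 scale, while CUC2, SPCH and MUTE stayed below 1 FPKM, and the list summed to 5.71 to 6.03 FPKM in wt and 3.03 to 3.81 FPKM in lon1-1.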
